A study of Mus with 9 samples.

Results

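Cell senescence is a lasting arrest of the cell cycle, and 9 genes of the pathways that carry it out were described here in the hippocampus of a mouse strain bred for accelerated senescence. The 9 genes were Cdkn1a, Cdkn1b, Cdkn2a, Cdkn2b, Trp53, Mdm2, Rb1, Lmnb1 and Gadd45a. They were chosen by name, as every row of both deposited tables whose gene symbol equalled one of them. This gave 11 of 22206 probe sets, 3 for Rb1 and 1 for each of the other genes, and none of these probe sets was shared with another gene. A probe set is the group of short probes that the array holds for one transcript locus.

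Male mice with a stated age of 16 weeks were compared in 3 groups, with 3 Clariom S Mouse arrays of hippocampal RNA for each. The SAMR1 group and the SAMP8 group received vehicle, which is saline in the sample records and water in the methods. The TG-treated SAMP8 group received trigonelline (TG), an alkaloid of plants such as coffee and fenugreek, orally for 30 days at a daily dose of 5 mg/kg. All 3 groups went through training in the Morris water maze, and the treatments went on while it lasted. The methods give 16 weeks for the mice as used, and acclimatization, dosing and maze came before the hippocampus was taken. The age at that later point is not stated. SAMP8 and SAMR1 are related inbred strains, so the SAMP8 against SAMR1 comparison is one of strains at a single age and holds no older or younger animals. Strain background and accelerated ageing cannot be told apart in it, and whether the probes match both strains' genomes equally was not tested.

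The name of the strain refers to ageing of the whole animal, and does not say that its cells are senescent. In senescent cells, DNA damage and other stresses stabilise p53, the transcription factor encoded by Trp53, which switches on Cdkn1a (p21). p21 and the other inhibitors of cyclin-dependent kinases keep the retinoblastoma protein, encoded by Rb1, bound to E2F factors, and the genes of DNA replication stay off. Senescent cells commonly lose lamin B1, encoded by Lmnb1, and release inflammatory proteins known as the senescence-associated secretory phenotype. Most hippocampal neurons have left the cell cycle for good, and p21 and p53 also act in them and in glia outside senescence.

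The deposited tables hold 1 log2 average for each group and probe set, and the SAMP8 averages were identical in both tables. They also hold the authors' own p-values, which rest on the single arrays and were not used here. The averages themselves do not show the spread between mice, so no test between groups was run, and whether any difference given here exceeds that spread was not tested. A difference is the difference of 2 log2 averages, with a rounding error of up to 0.01. It is called past the limit where it exceeds 1.5-fold, that is 0.585 on the log2 scale. SAMP8 against SAMR1 and TG-treated SAMP8 against SAMP8 share the SAMP8 averages, so an error in these moves both comparisons in opposite directions.

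In the hippocampus of SAMP8 mice, Cdkn1a was 1.71-fold higher than in SAMR1, and the other 8 genes lay within 1.5-fold. With TG, Cdkn1a lay close to its SAMP8 level, and Gadd45a, a stress sensor that p53 also switches on, was 1.52-fold higher than in SAMP8, just past the limit. Between SAMP8 and SAMR1, 1 of the 9 genes was past 1.5-fold higher, where 5.00% of all probe sets were, and 0 were past it lower, where 6.08% were. Between TG-treated SAMP8 and SAMP8, 1 of 9 was past it higher against 4.48% of all probe sets, and 0 were past it lower against 3.74%. Between TG-treated SAMP8 and SAMR1, 1 of 9 was past it higher, again Cdkn1a, against 5.62% of all probe sets, and 0 were past it lower against 4.83%. With only 9 genes, counts of 1 and 0 lie close to these shares. The median difference of the 9 genes was -0.02, 0.13 and 0.20 in the 3 comparisons in that order, beside 0.00, 0.01 and -0.01 over all probe sets.

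**Figure D1:**
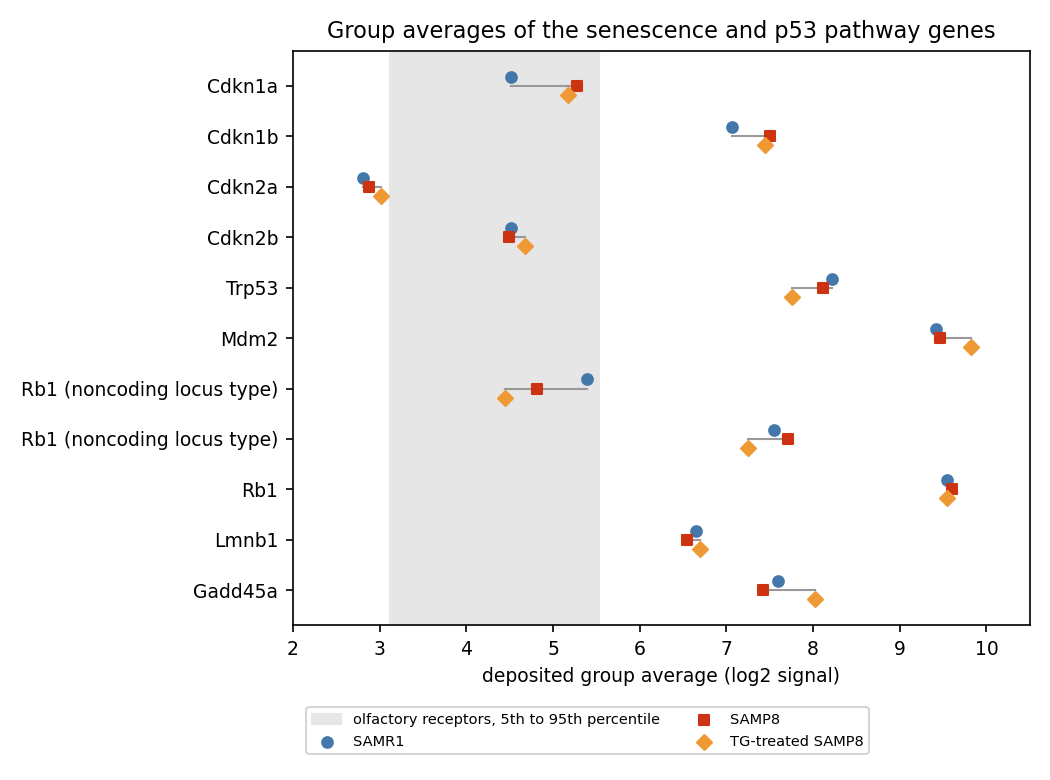
Deposited group averages (log2 signal, horizontal axis) of the 11 probe sets of the 9 genes, with 1 point for each group and no error bars, since values per array were not used. The grey band covers the 5th to the 95th percentile of the olfactory receptor genes over the 3 groups. Cdkn1a, Cdkn2a, Cdkn2b and 1 Rb1 probe set of the noncoding locus type lie in or below the band, and the other 7 probe sets lie to its right in every group.

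The signal of 3 of the 9 genes was low. The tables hold no detection calls, so the 1096 probe sets of olfactory receptor genes, most of which are little used outside the nose, served as a guide to the signal of genes with little or no transcript. From the 5th to the 95th percentile, their averages ran from 3.18 to 5.53 for SAMR1, from 3.12 to 5.37 for SAMP8 and from 3.16 to 5.39 with TG. Cdkn1a, Cdkn2a and Cdkn2b lay at or below the upper end of this range in every group, and Cdkn1b, Trp53, Mdm2, Lmnb1, Gadd45a and Rb1 (by the mean of its probe sets) lay above it in every group. Cdkn2a was dimmer than nearly all olfactory receptors, with only 0.6% of them below it. A low-signal probe set can still respond to its transcript, but the averages do not show whether these genes were detected.

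Trp53 (GRCm38 chr11:69580348-69591873) encodes p53, and Mdm2 (chr10:117688875-117710758) encodes the ubiquitin ligase that marks p53 for breakdown and is itself switched on by p53. The log2 average of Trp53 was 8.22 in SAMR1, 8.12 in SAMP8 and 7.76 with TG. That of Mdm2 was 9.42, 9.47 and 9.82 in the same order. The vehicle groups were thus close for both genes, and with TG the average of Trp53 was lower and that of Mdm2 higher. The difference with TG was -0.36 for Trp53, or 1.28-fold, and 0.35 for Mdm2, or 1.27-fold, against the SAMP8 average. Both lie outside the middle 50% of all probe sets in that comparison (-0.19 to 0.20) and inside the middle 90% (-0.53 to 0.56). p53 is controlled mainly through the stability of its protein, which an array does not measure.

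The other p53 family members and the enzymes that modify p53 were measured in full, 17 of 17 genes. Between SAMP8 and SAMR1, 1 was past 1.5-fold higher and 1 lower, beside 5.00% and 6.08% of all probe sets, with a list median of 0.12. Atm, the kinase that signals DNA breaks to p53, had averages of 6.91 in SAMR1, 7.63 in SAMP8 and 6.96 with TG. It was high in SAMP8 alone, by 0.72 against SAMR1 and by 0.67 against TG-treated SAMP8. Trp73, a relative of p53, was low in SAMP8 alone, at 3.52 against 4.18 in SAMR1 and 4.22 with TG, all within the olfactory receptor range. With TG, 15 of the 17 were lower than in SAMP8 by any amount and 2 higher, with a median of -0.22 beside 0.01 over all probe sets. Among probe sets of like signal to Mdm2, the median with TG was -0.06. In SAMP8, which both comparisons share, 12 of the 17 were higher than in SAMR1 and 5 lower. Between TG-treated SAMP8 and SAMR1, 5 were higher and 12 lower, with a median of -0.13. With TG against SAMP8, 2 of the 17 were past 1.5-fold lower, Atm and the acetyltransferase Kat5, which averaged 11.03, 11.29 and 10.65. Trp73 was past it higher. Of all probe sets, 3.74% were past it lower with TG and 4.48% higher. Chek1, at -0.69, and Chek2, at -0.59, both checkpoint kinases, were past it lower, and the deacetylase Sirt1, at 0.60, past it higher, between TG-treated SAMP8 and SAMR1.

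Cdkn1a (chr17:29090979-29100722) encodes p21, which binds and blocks cyclin-dependent kinases, and its transcription is the best known output of p53. Its log2 average was 4.51 in SAMR1, 5.28 in SAMP8 and 5.17 after TG treatment. Both SAMP8 groups were therefore above SAMR1, by 0.77 (1.71-fold) without TG and by 0.66 (1.58-fold) with it, and they differed from each other by 0.11. Among the probe sets of like signal, about 1110 of them, 3.60% were past 1.5-fold higher and 9.64% past it lower between SAMP8 and SAMR1, and the middle 90% ran from -0.76 to 0.50. Relative to the median of that class, Cdkn1a was higher by 0.86. Of all single-gene probe sets, Mrps27, Drc1 and Rmdn3 came nearest to the pattern of Cdkn1a over the 3 averages, within 0.02 in Euclidean distance between the pairs of differences. Within 0.1 of that pattern lay 53 other single-gene probe sets, where the array holds 22206 probe sets in all.

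Gadd45a (chr6:67035096-67037407) encodes a small protein that is made after DNA damage and other stress and that takes part in repair, growth arrest and DNA demethylation. Its log2 average was 7.60 in SAMR1, 7.42 in SAMP8 and 8.02 with TG. The treated group was the highest, by 0.60 against SAMP8 and by 0.42 (1.34-fold) against SAMR1. Among probe sets of like signal, 5.76% were past 1.5-fold higher with TG, and their 95th percentile was 0.60. The other genes of the family, Gadd45b at 6.16, 5.77 and 6.03 and Gadd45g at 5.89, 6.08 and 5.85, lay within 1.5-fold in all comparisons.

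**Figure D2:**
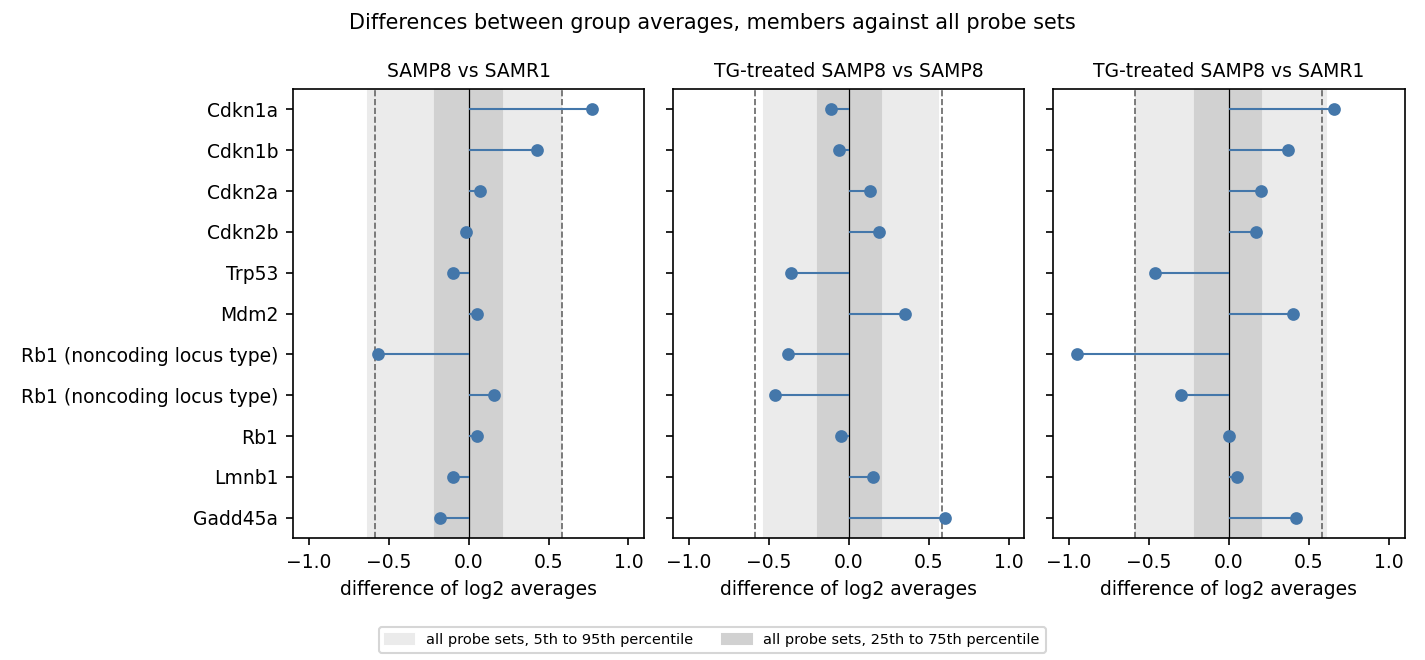
Differences of log2 averages (horizontal axis) for the 11 probe sets, 1 panel for each of the 3 comparisons. The dashed lines mark 1.5-fold (0.585), and the grey bands hold the middle 50% and the middle 90% of all 22206 probe sets. Cdkn1a lies past the line in both comparisons with SAMR1, Gadd45a just past it in TG-treated SAMP8 against SAMP8, and 1 Rb1 probe set past it on the lower side in TG-treated SAMP8 against SAMR1.

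Other known transcriptional targets of p53 differed in both directions. All 30 listed targets were measured, and 12 of them lay at or below the olfactory receptor range in every group. Between SAMP8 and SAMR1, 16 were higher by any amount and 13 lower, with a median of 0.01, and 2 were past 1.5-fold higher and 0 lower, near the 5.00% of all probe sets past it higher. Without the 25% of probe sets that were dimmest, 23 targets were left, 14 higher and 8 lower, with a median of 0.11. The 2 were Ccng1, an abundant cyclin that binds a phosphatase subunit, and Trp53inp1, which takes part in cell death and autophagy. Ccng1 averaged 11.84 in SAMR1, 13.02 in SAMP8 and 12.78 with TG, a difference of 1.18 between the vehicle groups, and like Cdkn1a it was higher in both SAMP8 groups. Trp53inp1 averaged 6.50, 7.14 and 6.69, high in SAMP8 without TG only.

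With TG, 13 of the 30 targets were higher than in SAMP8 by any amount and 15 lower, with a median of -0.07. The death receptor gene Fas alone was past 1.5-fold, beside 4.48% of all probe sets higher and 3.74% lower. Its averages of 4.83, 4.27 and 4.92 lay in the olfactory receptor range. Of the listed targets that act in cell death through the mitochondria, Bax averaged 6.97, 6.94 and 6.99, Pmaip1 4.39, 4.48 and 4.50, Bbc3 4.47, 4.36 and 4.17, and Apaf1 4.88, 5.38 and 5.15. All were within 1.5-fold in each comparison, and Pmaip1 and Bbc3 lay within the olfactory receptor range. Between TG-treated SAMP8 and SAMR1, Ccng1 (0.94) and Tigar (0.71), a phosphatase that slows glycolysis, were past 1.5-fold higher and the DNA repair gene Ddb2 (-0.68) past it lower.

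**Figure D3:**
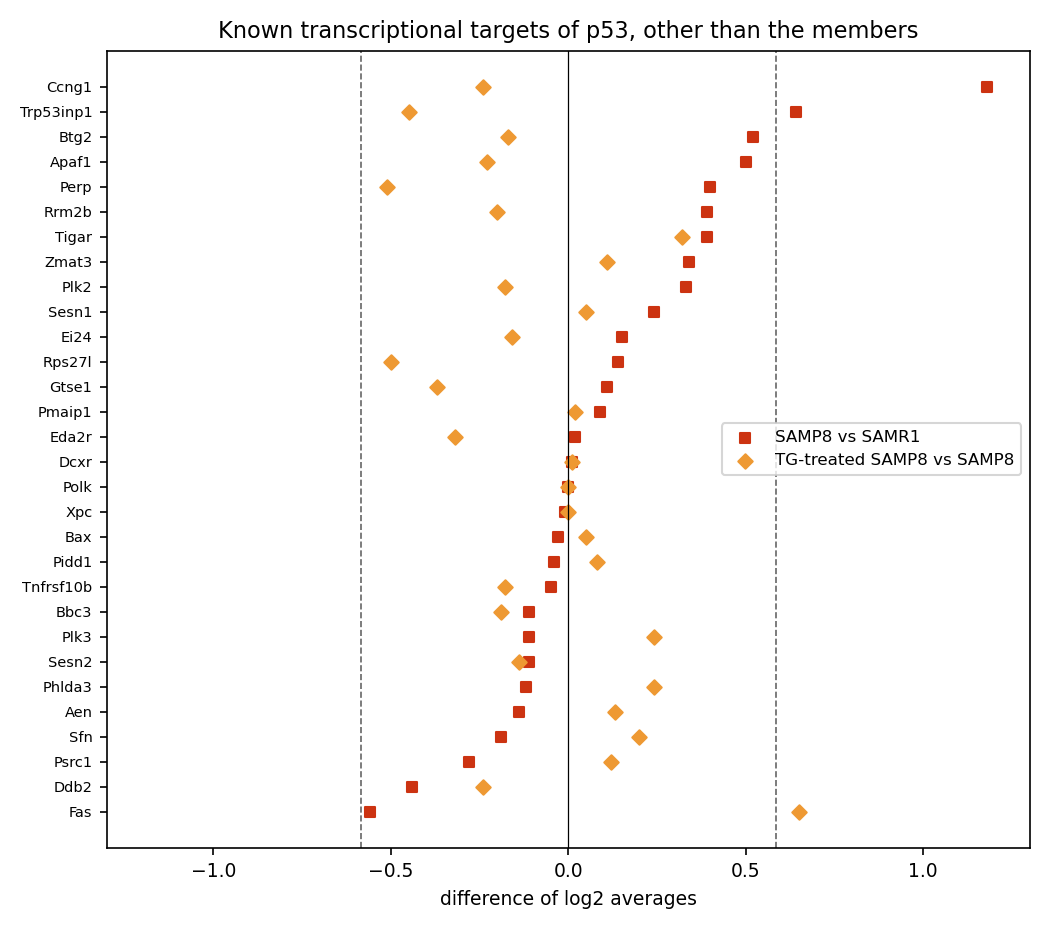
Differences of log2 averages (horizontal axis) of 30 known p53 targets other than the 9 genes, ordered by the SAMP8 against SAMR1 difference (squares), with TG-treated SAMP8 against SAMP8 as diamonds and 1.5-fold as dashed lines. Both differences of a gene use the same SAMP8 average. Ccng1 and Trp53inp1 lie past the line on the right as squares and Fas as a diamond, and the remaining points lie between the lines.

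The kinase inhibitors other than p21 differed by less than Cdkn1a between SAMP8 and SAMR1. Between TG-treated SAMP8 and SAMR1, Cdkn2d alone differed by more (0.93). Against SAMP8, Cdkn1a differed by -0.11 with TG, and Cdkn2a, Cdkn2b, Cdkn2c and Cdkn2d by more in size, at most 0.35. Cdkn1b (chr6:134920401-134925525) encodes p27, which holds cells in quiescence and is abundant in cells that no longer divide. Its log2 average was 7.07 in SAMR1, 7.50 in SAMP8 and 7.44 after TG treatment, the same order as for Cdkn1a, with a difference of 0.43 (1.35-fold) between the vehicle groups. That difference lies above the middle 50% of all probe sets in this comparison (-0.21 to 0.21). In the treated group, Cdkn1a and Cdkn1b were still above the SAMR1 average, by 0.66 and 0.37.

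Cdkn2a and Cdkn2b lie side by side on chromosome 4, at chr4:89274473-89294619 and chr4:89306289-89311032. Cdkn2a encodes p16, a blocker of Cdk4 and Cdk6 and the most used marker of senescent cells, and in another reading frame p19Arf, which inhibits Mdm2. Cdkn2b encodes p15, a close relative of p16. The log2 average of Cdkn2a was 2.81 in SAMR1, 2.88 in SAMP8 and 3.01 with TG. That of Cdkn2b was 4.51, 4.49 and 4.68. Both genes were thus at a low signal in all 3 groups, SAMP8 differed from SAMR1 by 0.07 and -0.02, and the highest average of each was that of the TG-treated group. A single probe set cannot separate p16 from p19Arf, and at signals this low a difference in few cells may not be measurable.

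Of the 3 further inhibitors, none was past 1.5-fold between SAMP8 and SAMR1 or with TG. Cdkn2d, which encodes p19Ink4d and is known from neurons, averaged 7.24, 7.82 and 8.17, at the limit in SAMP8 (0.58) and past it between TG-treated SAMP8 and SAMR1 (0.93). The Polycomb genes, which keep the Cdkn2a locus silent, were all within 1.5-fold in all comparisons (8 of 8), and Bmi1, their best known member, averaged 10.87, 10.30 and 10.37.

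Rb1 (chr14:73192858-73325951) was read by 3 probe sets that differed from each other. The brightest, listed as a coding and noncoding locus, averaged 9.55 in SAMR1, 9.60 in SAMP8 and 9.55 with TG, so that no group differed by more than 0.05. The other Rb1 probe sets are of the noncoding locus type. One averaged 7.55, 7.71 and 7.25. The dimmest averaged 5.39, 4.82 and 4.44, and its difference between TG-treated SAMP8 and SAMR1, -0.95, was past 1.5-fold. The mean over all 3, which stands for Rb1 in the counts, was 7.50, 7.38 and 7.08, and its differences of -0.12 and -0.30 come from the noncoding probe sets. What these transcripts are is not given in the tables beyond the gene symbol.

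Of 17 measured genes of the RB, E2F and DREAM group other than Rb1, 0 were past 1.5-fold between SAMP8 and SAMR1. Of all probe sets, 5.00% were past it higher and 6.08% lower. With TG, E2f8, a repressor of the E2F family, was past it higher, at 4.59, 4.36 and 5.32, within the olfactory receptor range. Between TG-treated SAMP8 and SAMR1, E2f8 (0.73) and Lin52 (0.62), a subunit of the DREAM complex, were past it higher and E2f5 (-0.68), a repressive E2F, lower. Of the 7 measured G1 cyclins and kinases, Ccne2, a cyclin E, was past it higher in SAMP8, at 5.90, 6.65 and 6.17. Cyclin D1 shares its probe set with another gene and is not among these 7. That shared probe set averaged 8.78, 8.88 and 8.24. Of 20 measured proliferation genes, 0 were past 1.5-fold between SAMP8 and SAMR1 or with TG. Of all probe sets, 4.48% were past it higher with TG and 3.74% lower. Between TG-treated SAMP8 and SAMR1, Mcm6 (-0.62) was past it lower, beside 4.83% of all probe sets. Mcm6 averaged 5.40, 5.16 and 4.78, within the olfactory receptor range. In SAMP8, 6 of the 20 were higher and 14 lower than in SAMR1 by any amount, with a median of -0.19. The olfactory receptor probe sets, also of low signal, had a median of -0.11 in that comparison. Without the 25% of probe sets that were dimmest, 14 proliferation genes were left, 5 higher and 9 lower, with a median of -0.17. In every group, 15 of the 20 lay at or below the olfactory receptor range.

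Lmnb1 (chr18:56707813-56753424) encodes lamin B1, part of the mesh under the nuclear envelope. Its log2 average was 6.65 in SAMR1, 6.55 in SAMP8 and 6.70 after TG treatment. SAMP8 was thus the lowest of the 3, by 0.10 against SAMR1 and 0.15 against the treated group, which is inside the middle 50% of all probe sets in each comparison. The 13 other measured genes of the lamina and envelope had a median difference of 0.19 between SAMP8 and SAMR1. Of these, 3 were past 1.5-fold higher in SAMP8, beside 5.00% of all probe sets, and 0 lower, beside 6.08%. These were Lmnb2, Emd and Syne1. Lmnb2, which encodes lamin B2, averaged 4.75, 5.53 and 5.17. It lay within the olfactory receptor range in SAMR1 and with TG, and just above that range in SAMP8. Emd, which encodes emerin, averaged 9.12, 9.80 and 9.64. Syne1, a linker to the cytoskeleton given as the mean of 2 probe sets, averaged 13.21, 13.79 and 13.29. It only just reached the limit, by less than the rounding error of a difference. Lmna, which encodes the A-type lamins, averaged 6.99, 7.09 and 7.11. Lemd2, at 7.45, 7.25 and 7.88, was the single one past the limit with TG, beside 4.48% of all probe sets higher and 3.74% lower.

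Of the 8 measured genes of senescence chromatin and lysosomal beta-galactosidase, 2 were past 1.5-fold higher in SAMP8 and 0 lower. Of all probe sets, 5.00% were past it higher and 6.08% lower. H2afy, which encodes the histone variant macroH2A of silent chromatin, averaged 9.69 in SAMR1, 10.55 in SAMP8 and 10.62 with TG, high in both SAMP8 groups. Suv39h1, a methyltransferase of heterochromatin, averaged 6.44, 7.38 and 6.37, high in SAMP8 without TG only. It was past the limit lower with TG (-1.01), beside 3.74% of all probe sets. Glb1, the source of the beta-galactosidase stain for senescent cells, shares its probe set with another gene, and that probe set averaged 7.33, 7.76 and 7.38.

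The secretory phenotype was represented by 32 genes, of which 24 lay at or below the olfactory receptor range in every group. Between SAMP8 and SAMR1, 2 were past 1.5-fold higher and 1 lower, beside 5.00% and 6.08% of all probe sets, with a median of 0.01. The growth factor gene Hgf averaged 5.60 in SAMR1, 6.31 in SAMP8 and 5.55 with TG, and Igfbp2, which encodes a binding protein of insulin-like growth factors, averaged 9.36, 10.03 and 9.59. The chemokine gene Ccl2 was lower in SAMP8, at 5.27, 4.43 and 4.85. The cytokine genes most used as signs of this phenotype were low in all groups, Il6 at 3.45, 3.71 and 3.54 and Tnf at 2.66, 2.86 and 2.83. With TG, Vegfa, which encodes the vascular growth factor, was past 1.5-fold higher, at 11.19, 10.70 and 11.57, and Hgf was past it lower, with a median over the list of 0.05. Of all probe sets, 4.48% were past it higher with TG and 3.74% lower.

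**Figure D4:**
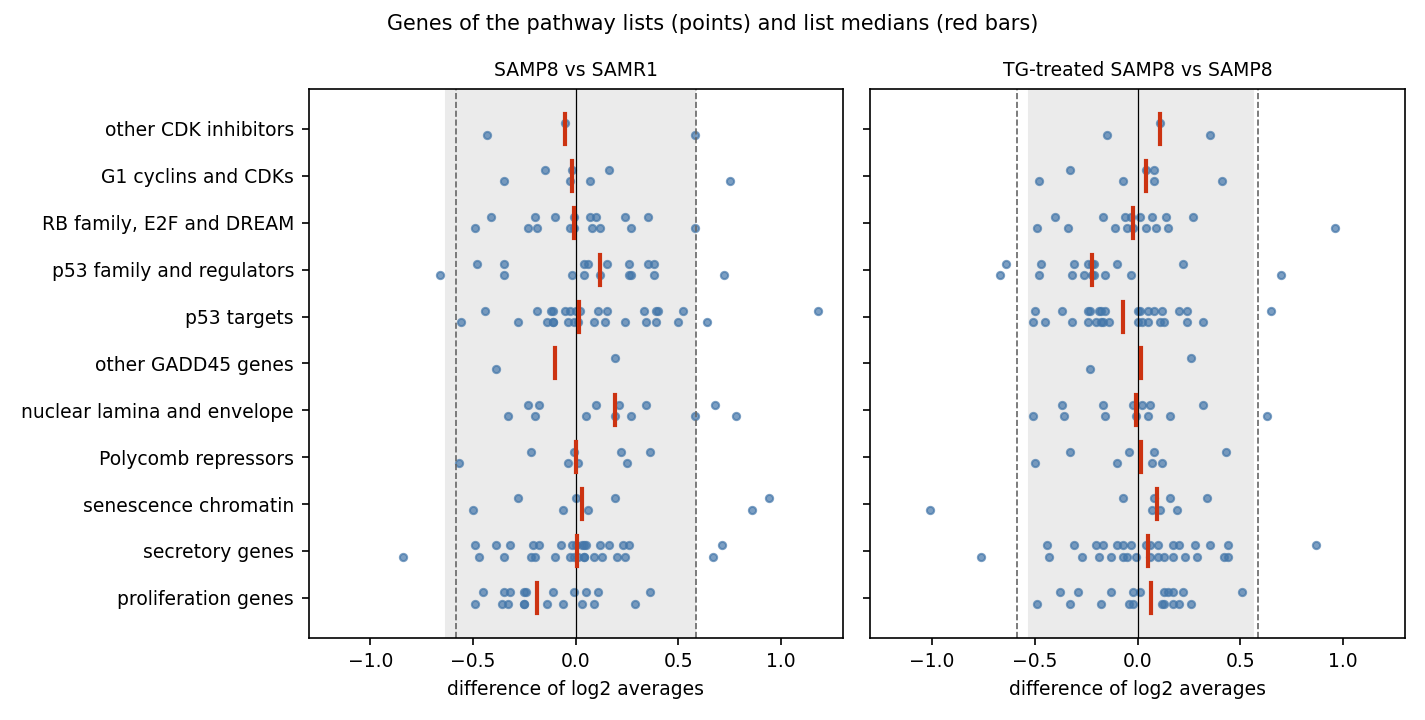
Differences of log2 averages (horizontal axis) of the 157 genes of the pathway lists, 1 row for each of 11 lists, in SAMP8 against SAMR1 (left) and TG-treated SAMP8 against SAMP8 (right). Points are genes, red bars are list medians, dashed lines mark 1.5-fold and the grey band is the middle 90% of all probe sets. On the left the list medians lie between -0.19 and 0.19, and on the right the lowest, -0.22, is that of the p53 family and regulators.

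Over all 157 measured genes of these lists, 11 were past 1.5-fold higher (7.01%) and 2 lower (1.27%) between SAMP8 and SAMR1, with a median of 0.01. Over all probe sets, these shares were 5.00% and 6.08%. With TG, 5 of the 157 genes were past 1.5-fold higher (3.18%) and 4 lower (2.55%), with a median of -0.02. Over all probe sets, the shares with TG were 4.48% and 3.74%.

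The signal of markers of hippocampal neurons was set beside the olfactory receptor range. Of 11 measured markers, 9 lay above that range in every group, among them Prox1, the granule cell factor of the dentate gyrus, at 11.26, 11.85 and 11.00. So did 5 of 6 thalamus markers and 6 of 8 striatum markers, so these counts cannot tell hippocampus from neighbouring tissue. Markers of several cell types differed between the groups along with the senescence genes. In this tissue, fewer cells of a type and less RNA per cell cannot be told apart. Of all probe sets, 5.00% were past 1.5-fold higher and 6.08% lower between SAMP8 and SAMR1, and 4.48% and 3.74% with TG. Between SAMP8 and SAMR1, 3 of 11 markers of hippocampal neurons were past 1.5-fold higher (Spink8, Bok and Prox1), as were 2 of 8 of astrocytes (Gfap, by 0.95, and Slc1a3) and 3 of 9 of microglia (Aif1, by 1.51, P2ry12 and C1qb), with 1 microglial marker past it lower. Of the 6 markers of smooth muscle and pericytes, Acta2 (2.19) and Rgs5 (1.29) were past it higher and Tagln (-0.83) lower. With TG, 2 of these 6 markers were past it lower, led by Acta2 (-2.17), and Tagln (0.71) was past it higher. Of 12 meningeal markers, 6 were past 1.5-fold lower with TG, led by Ptgds at -2.69, and 0 higher, against 4 higher and 2 lower in SAMP8. Of the markers of neighbouring tissue, 3 of 6 for thalamus were past 1.5-fold higher and 1 lower in SAMP8, as were 2 and 1 of 9 for choroid plexus and 1 and 0 of 8 for striatum. With TG these counts were 1 and 2, 2 and 1, and 0 and 1. Of 8 endothelial markers, 1 was past it higher in SAMP8 and 1 lower with TG. Each of the lists for neurons in general, progenitors and oligodendrocyte precursors had at most 1 marker past the limit in a direction in SAMP8 and with TG. Of the oligodendrocyte markers, 1 of 7 was past it lower in SAMP8 and 2 higher with TG. The only blood marker with its own probe set, Alas2, differed by -1.06 in SAMP8 and 0.44 with TG.

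The mean log2 average of the 12 meningeal markers was 6.59 in SAMR1, 6.88 in SAMP8 and 6.17 with TG, and that of the 6 markers of smooth muscle and pericytes was 6.36, 6.89 and 6.46. The 8 endothelial markers averaged 7.40, 7.71 and 7.43, the 9 microglial markers 7.32, 7.59 and 7.57, and the 8 astrocyte markers 12.28, 12.58 and 12.64. The 11 markers of hippocampal neurons averaged 8.14, 8.44 and 8.28, the 8 of neurons in general 14.19, 14.34 and 14.44, and the 3 of oligodendrocyte precursors 6.94, 7.33 and 7.54. Like Cdkn1a, Cdkn1b, Ccng1 and H2afy, these lists and those of microglia and astrocytes had higher means in both SAMP8 groups than in SAMR1, although 4 of the 9 microglial markers were lower in SAMP8 (median 0.09). So had the lists for endothelium, smooth muscle, thalamus and choroid plexus. Of the 9 choroid plexus markers, however, 5 were lower in SAMP8 than in SAMR1, and 6 were lower with TG than in SAMR1. Of the 8 endothelial markers, 5 were lower with TG than in SAMR1. Like Atm, Trp53inp1, Suv39h1 and Hgf, the endothelial, smooth muscle and meningeal markers had their highest mean in SAMP8 without TG. The same held for thalamus (7.75, 8.10 and 7.81), striatum (6.75, 6.96 and 6.72), hippocampal neurons and, barely, microglia. Single markers differed from these means, and 2 of 6 smooth muscle, 4 of 12 meningeal and 4 of 8 striatum markers were lower in SAMP8 than in SAMR1. Like Gadd45a, the 7 oligodendrocyte markers had their highest mean with TG, at 11.17, 11.08 and 11.41. So had the lists for neurons in general, astrocytes, oligodendrocyte precursors and choroid plexus (5.70, 5.74 and 5.80). With TG, however, 5 of the 8 astrocyte markers (median -0.03) and 5 of the 9 choroid plexus markers (median -0.04) were lower than in SAMP8. Of the 7 oligodendrocyte markers, 6 were higher with TG than in SAMP8 by any amount, with a median of 0.36. Mag and Cldn11 were past 1.5-fold, each by 0.71. The part of cell makeup in these differences was not tested.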

How the data were processed

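Hippocampal RNA of 9 mice was measured on Clariom S Mouse arrays, and arrays were grouped by their titles in the sample records. The authors normalized and summarized the array intensities by SST-RMA, a form of RMA, in the Transcriptome Analysis Console, and the 2 deposited tables hold the authors' group averages as log2 signal, with 2 decimals and mm10 annotation. Their other columns hold a fold change, a p-value and a false discovery rate for each comparison, which were not used here. The series text speaks of duplicate RNA samples where the records list 3 arrays per group, and a description in each record concerns a macrophage cell line and was not used.

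Differences of averages were computed for all 22206 probe sets, of which 836 carry several gene symbols. A gene with several probe sets of its own was given their mean, and a probe set with several symbols was left out. Like signal means the same 1 of 20 classes by mean average. Gene positions come from the RefSeq table of GRCm38, where all 9 genes were found. The 9 genes, the 11 pathway lists and the 14 marker lists were chosen with earlier results of these data known. Named are the 9 genes, of each pathway list up to 4 genes past 1.5-fold per comparison, up to 3 per marker list, and the 3 probe sets nearest to the gene with the widest range. Bax, Pmaip1, Bbc3, Apaf1, Bmi1, Lmna, Gadd45b, Gadd45g, Il6, Tnf, Cdkn2d, cyclin D1 and Glb1 were named after their values were seen, as was the olfactory receptor range chosen. The alternatives were other fold limits, centring of the differences, the brightest probe set, probe sets with several symbols and a filter on low signal. Only 3 arrays per group limit the precision of every average. Python 3.11.15, numpy 2.4.6, pandas 2.3.3 and matplotlib 3.10.9 were used.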

Additional observations from a re-analysis of the deposited data

How the results depend on the processing

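The limit of 1.5-fold decided the counts. At 1.2-fold, 2 of the 9 genes were past the limit higher in SAMP8 against SAMR1 (Cdkn1a and Cdkn1b, 20.4% of all probe sets), 2 higher (Mdm2 and Gadd45a, 19.6%) and 2 lower (Trp53 and Rb1, 18.5%) in TG-treated SAMP8 against SAMP8, and 4 higher (Cdkn1a, Cdkn1b, Mdm2 and Gadd45a, 20%) and 2 lower (Trp53 and Rb1, 20.5%) in TG-treated SAMP8 against SAMR1. At 2-fold, 0 of the 9 genes were past it in any of the 3 comparisons, beside 0.324% to 1.43% of all probe sets in a direction. Centring on the median of all probe sets or of those of like signal, and adding probe sets with several symbols, kept all 6 counts. So did the brightest probe set, which took Rb1 from -0.12 to 0.05 in SAMP8 against SAMR1 and from -0.30 to -0.05 with TG. With the 25% of probe sets of lowest signal left out, 6 list counts differed by over 1.5 times and 150 did not. Of the pathway lists this touched the p53 regulators, which lost Trp73. Probe sets with several symbols, an alternative added after seeing the data, changed 2 list counts, cyclin D1 (-0.64) and Zbtb20 (-0.65) with TG. Leaving out single arrays could not be run on averages. Low signal limits Cdkn1a, Cdkn2a and Cdkn2b.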
